A study of Mus musculus with 9 samples.

Results

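The comparison of neutrophil-fed with unfed ST2 cells at 24 h is described here across all expressed genes. ST2 is an established stromal cell line of mouse bone marrow, and the labels give its genotype as wild type. The comparison used the 3 libraries of cells fed human neutrophils for 24 h (fed 24 h) and the 3 libraries of cells kept for 24 h without neutrophils (unfed 24 h), chosen by their labels, 6 of the 9 libraries of the series. The other 3 libraries, of cells fed for 3 h, were not compared. They entered the model to help estimate the spread between replicates, and also the filter on low counts and the scaling. Before feeding, the neutrophils were stored frozen for 18 h or longer and then labelled with 20 µM of a fluorescent dye, steps with no counterpart in the unfed group. They were given at 10 per ST2 cell, and only fed cells whose dye signal equalled the uptake of a whole neutrophil or more were collected by flow cytometry. The labels do not say whether unfed cells went through the sorter, so feeding, the selection for uptake and any effect of sorting cannot be told apart. All groups came from 1 cell line, and the labels number the replicates without saying that they were separate cultures, so p-values measure only the spread between these libraries.

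Bone marrow stromal cells surround blood-forming cells, supply them with chemokines and growth factors, lay down collagen-rich matrix and can give rise to osteoblasts. Besides macrophages, stromal cells can engulf dying neutrophils, a process called efferocytosis. The engulfed cell is taken into a phagosome that fuses with lysosomes, where its proteins, lipids and nucleic acids are broken down, so the eating cell gains cargo that its lysosomes, mitochondria and lipid handling must process. The title of the study concerns osteoblast formation and mitochondria.

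The 6 libraries held between 44442664 and 55971275 counts. The filter on low counts, applied to all 9 libraries, passed 13568 genes, and 13253 passed with the 6 libraries alone. On a principal component analysis of the 6 libraries, the first component held 43.6% of the variance and had all fed libraries on one side and all unfed libraries on the other. The second component, with 17.8%, had unfed replicate 1 and unfed replicate 2 at its opposite ends. Fed libraries had larger mitochondrial shares of the counts, at 1.85%, 2.22% and 1.78% against 1.61%, 1.48% and 1.59% in unfed libraries. They also had larger shares of Gm42418 and Gm26917, which collect ribosomal RNA reads, at 0.343%, 0.201% and 0.350% against 0.101%, 0.0904% and 0.115%. Neither set of shares overlapped between groups, and the exact two-sided permutation test gave p = 0.1 for each, the smallest p that 3 against 3 libraries allow. The part of RNA or library quality in the results below was not tested.

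Stromal identity was checked first. Of 16 surface and matrix genes of stromal cells, 15 passed the filter, and Col1a1, the main chain of type I collagen, had 12438, 13254 and 12013 CPM (counts scaled to a common library size of 1e+06 counts) in unfed libraries and 11900.3, 12882 and 11550.5 CPM in fed libraries. Thy1 was at 0 counts in all 6 libraries. Lepr, the leptin receptor that marks niche stromal cells in vivo, was near 1 CPM, at 1.01, 0.904 and 0.800 CPM in unfed and 1.16, 0.946 and 0.882 CPM in fed libraries. Neutrophil markers of the mouse were near absent, with 8 of 25 at 0 in all 6 libraries and 22 of 25 under 1 CPM, and S100a9, Ctsg, Cxcr2 and Itgam were among those at 0. Their summed level was 6.92, 5.43 and 6.25 CPM in fed libraries and 5.05, 4.43 and 4.95 in unfed libraries, most of it from Camp, and none of the 4 tested members was called. The neutrophils were human and the table lists mouse genes, so these markers are no direct measure of carried-over neutrophil RNA. How human reads were kept apart from mouse reads is not given in the sources used here, and how many human reads of conserved genes were counted under mouse symbols in fed libraries was not tested. The macrophage list summed to 25.6 to 28.9 CPM in fed and 23.6 to 25.8 in unfed libraries, mostly from Cd14, with 15 of 18 members under 1 CPM. Adgre1, C1qa, C1qb, C1qc, Tyrobp and Marco, 6 of the 18, were at 0 in all 6 libraries. Some other leukocyte markers too low to be tested had more counts in fed libraries. Summed over 3 unfed and 3 fed libraries, these were 1 and 12 for Spi1, 1 and 13 for Laptm5, 2 and 13 for Fcer1g and 0 and 5 for Ptprc, and on the neutrophil list 0 and 5 for both Ltf and Mmp8. These 6 genes were picked after their values were seen. Further untested leukocyte markers had fewer counts in fed libraries, with sums of 4 and 0 for Ncf1, 4 and 2 for Prtn3 and 7 and 1 for Cd79a. The lymphocyte list, with 0 members tested, summed to 7, 1 and 5 counts in unfed and 3, 1 and 2 in fed libraries. The part of leukocyte RNA in the results was not tested. Lyz2 was the 1 called macrophage marker of 4 tested (log2 0.63, not called in every alternative). In bulk samples, fewer cells of a type and less RNA per cell cannot be told apart.

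By the quasi-likelihood test of edgeR, 4176 genes (30.8%) differed at an adjusted p under 0.05, 2017 higher (14.9%) and 2159 lower (15.9%) in fed 24 h cells. The changes were mostly small. Of the called genes, 1154 higher and 927 lower ones had a fitted change of at least 1.2-fold, 331 and 161 of at least 1.5-fold, and 9 and 5 of at least 4-fold. A test against a change of 1.2-fold, rather than against no change, called 247 genes higher (1.82%) and 132 lower (0.973%). Single libraries moved these counts: without fed replicate 1 there were 1426 lower genes, and 132 higher and 48 lower genes above 1.2-fold. The latter counts were 156 and 84 without fed replicate 3, 416 and 272 without unfed replicate 1, and 157 and 58 without unfed replicate 3, and the higher count was 156 without unfed replicate 2. In CPM, all 3 fed libraries lay above all 3 unfed libraries for 2884 genes (21.3%) and below them for 2984 genes (22%). The median log2 fold change was 0.29 among higher genes, −0.24 among lower genes and −0.00 over all tested genes. Of the called genes, 1151 higher and 1149 lower ones were called in the same direction under every one of 17 other ways of processing the counts. These include leaving out each library in turn. All genes named below with a change met this condition unless stated. Mitochondrial and ribosomal RNA linked genes could not fail the setting that left them out, so it did not count for them. Most named genes were also chosen for groups that did not overlap, so that trait is no added support for them.

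The share of genes called grew with their level, from 7.25% of 2167 genes under 1 CPM to 46.1% of 89 genes at 1000 CPM or more. Among called genes the median size of the log2 change ran the other way, from 1.11 under 1 CPM to 0.21 between 100 and 1000 CPM. Several extreme values among weakly expressed genes rested on 1 or 2 libraries and were not called in every alternative. The pseudogene Rps2-ps5 was called lower at log2 −5.80, yet only unfed replicate 1 held it, at 32.6 CPM, with at most 0.311 CPM elsewhere. Gm3226 was called lower at log2 −4.05 from 21.0 CPM in unfed replicate 2 alone. Gm1821 was called higher at log2 2.94 with 5.74 and 4.52 CPM in fed replicates 1 and 2 and 0.507 CPM in fed replicate 3. These genes share sequence with other genes, so their counts are uncertain, and none is used below.

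**Figure D1:**
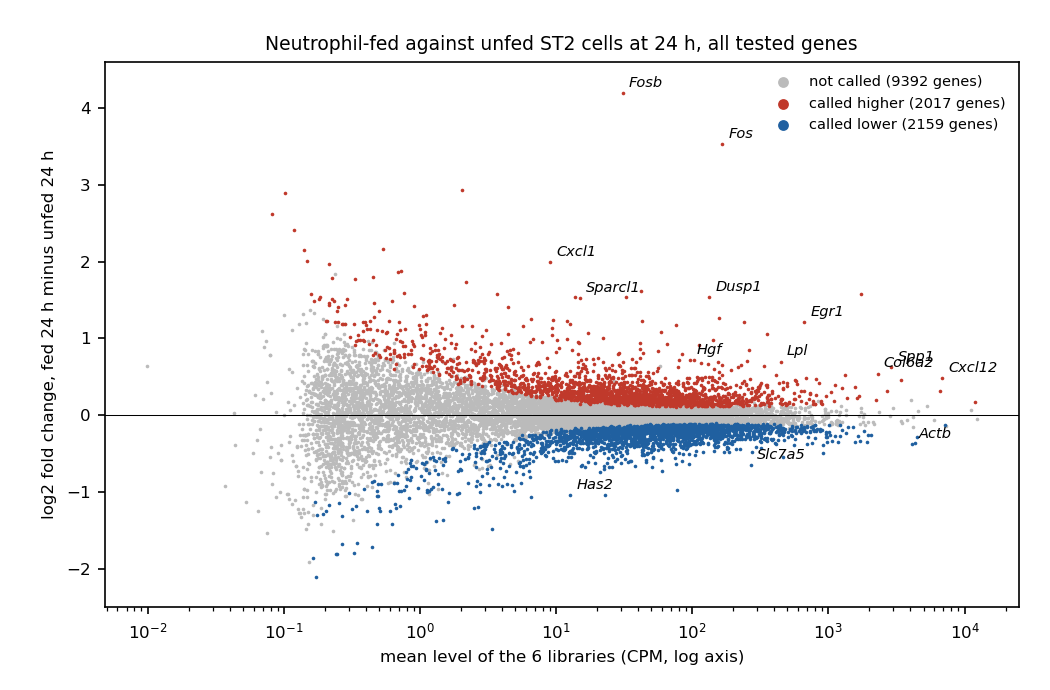
Log2 fold change of fed against unfed cells at 24 h (vertical axis) against the mean level of the 6 libraries in CPM (horizontal log axis), 1 point per tested gene, with called genes in red (2017 higher) and blue (2159 lower). Most called genes lie within 1 log2 unit of 0, Fos and Fosb stand far above the rest, and 4 points lie outside the vertical range.

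The largest rises and falls are given for genes that reached 10 CPM in 1 of the groups, whose groups did not overlap and which were called in every alternative (the naming rule). The largest rises were in genes of the early response, which cells switch on within minutes of growth factors, stress or mechanical stimulation, before new protein is made. Of 13 tested AP-1 subunits and relatives, 9 were higher and 1 was lower, with a median log2 change of 0.26. AP-1 is a dimer of FOS and JUN family proteins that activates genes of proliferation, matrix breakdown and inflammation. Log2 changes are given with their standard error (SE), adjusted p-values are from edgeR, and single levels are means of 3 libraries in each group. Fosb (chromosome 7, 19302696 to 19310051; this and other coordinates are from GENCODE M21 on GRCm38) had 2.33, 4.05 and 3.20 CPM in unfed libraries and 56.5, 54.1 and 65 CPM in fed libraries. Every fed library lay far above every unfed library (log2 4.19, SE 0.400, adjusted p = 6.37e-06). Fos (chromosome 12, 85473890 to 85477273) had 21.9, 25.3 and 31.7 CPM in unfed and 305, 252 and 355 CPM in fed libraries. Its groups did not overlap either (log2 3.53, SE 0.260, adjusted p = 1.54e-06). Jun, the main partner of FOS proteins (chromosome 4, 95049034 to 95052222), had 79, 100.3 and 98.5 CPM in unfed and 240.5, 205 and 225 CPM in fed libraries (log2 1.27, SE 0.0920, adjusted p = 1.50e-06). Jund, a JUN subunit with steadier expression in most cells, rose from 60.6 to 100.01 CPM, log2 0.72 ± 0.0633. The single lower member was Fosl1, which encodes the FOS relative FRA1, at 71.4, 81.4 and 87.1 CPM in unfed and 57, 67.2 and 68.9 CPM in fed libraries (log2 −0.31). Within 1 gene family, Fos and Fosb rose while Fosl1 fell.

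Of 19 tested early response genes of the Egr, Nr4a, Ier and Zfp36 families, 12 were higher and 2 lower, with a median of 0.59. Egr1, a zinc finger factor, was already abundant in unfed cells at 342, 380.1 and 473 CPM and reached 1195, 788 and 791 CPM in fed cells (log2 1.22, SE 0.181, adjusted p = 0.000203). Fed replicate 1 was the highest, and the lowest fed library still lay above the highest unfed library. Nr4a1, an orphan nuclear receptor, had 23.2, 11.5 and 15.5 CPM in unfed and 52.2, 41.4 and 51.9 CPM in fed libraries (log2 1.54). Csrnp1, a nuclear protein induced early by several stimuli, rose from 5.67 to 13.4 CPM, log2 1.24 ± 0.105. Zfp36 encodes a protein that destabilises cytokine mRNAs with AU-rich elements, and it rose from 77.6 to 146 CPM, log2 0.92 ± 0.131. Arc was an exception in this list, at 14.5, 13.6 and 15.2 CPM in unfed and 8.81, 11.2 and 10.8 CPM in fed libraries (log2 −0.49).

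Of 16 inhibitors that act back on the MAP kinases, 5 were higher and 3 lower. Dusp1, a phosphatase that inactivates MAP kinases, had 63.8, 69.8 and 71.5 CPM in unfed and 209, 185 and 204 CPM in fed libraries. The fed values lay well above the unfed values and varied little among themselves (log2 1.54, SE 0.0812, adjusted p = 5.88e-08). Dusp6, a phosphatase specific to ERK, rose from 19.9 to 31.4 CPM, log2 0.65 ± 0.0980, and Spry1, an inhibitor of receptor tyrosine kinase signalling, from 21.1 to 37 CPM, log2 0.81 ± 0.0926. Ppp1r15a encodes GADD34, which brings a phosphatase to eIF2α and so restores translation after stress. Its level was 17.9, 21.1 and 22.8 CPM in unfed and 81.4, 44.7 and 64.6 CPM in fed libraries (log2 1.62, SE 0.167, adjusted p = 1.20e-05). Fed replicate 2 was the lowest fed library for Ppp1r15a, Nr4a1, Cxcl1 and Dusp1, and still lay above every unfed library for each of them. Klf2, a Kruppel-like factor induced by ERK5 signalling, rose from 29.1 to 53 CPM, log2 0.87 ± 0.0786, whereas Klf10 fell from 35.8 to 25 CPM, log2 −0.52 ± 0.0661.

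The cells fed for 3 h, which have no unfed counterpart at that time, showed a different pattern for some of these genes. Fos had 8.70, 29.7 and 18.1 CPM in fed 3 h libraries, within or below the range of Fos in unfed cells, Dusp1 had 89.3, 109 and 82.4 CPM and Ppp1r15a 38.8, 46.2 and 33.6 CPM. Has2, the largest fall at 24 h under the naming rule, stood high at 3 h, at 41.7, 31.4 and 40.2 CPM. These values are given side by side only, since the unfed cells were collected at 24 h.

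**Figure D2:**
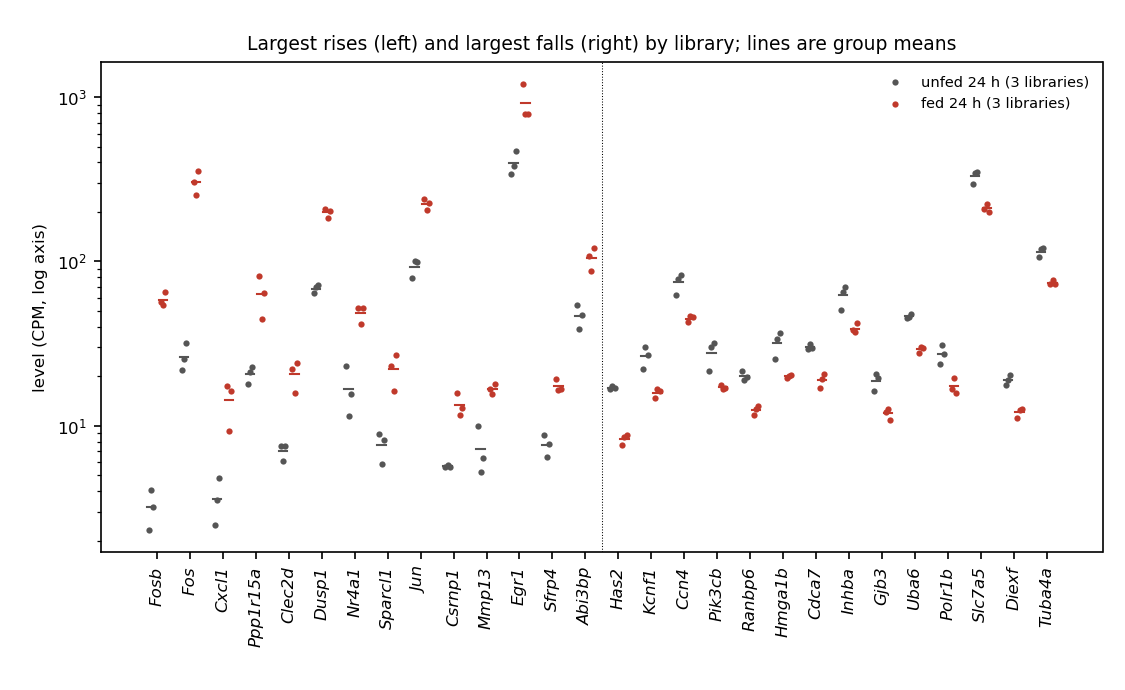
Level in CPM (log axis) of 14 of the 15 genes with the largest rise (left of the dotted line) and 14 of the 15 with the largest fall (right) among genes that met the naming rule, with 1 point per library, unfed in grey and fed in red, and lines at the group means of 3 libraries. Groups do not overlap for any of the 28 genes, which the rule required, and each rise shown is larger in log2 size than any fall shown.

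Promoter sequence was examined for these genes, because early response and interferon genes are read out through short, well-known promoter elements. Promoters of RefSeq (build GRCm38.p6, 250 bases before to 50 bases after the start) matched 9911 of the 13568 tested genes. The first 2 shown are the largest rises that hold a cyclic AMP response element, TGACGTCA, the site of CREB and ATF factors. The next 2 hold an interferon response element, a pair of GAAA half-sites spaced by 2 bases, and belong to Clec2d and to Bst2, an interferon-stimulated gene described below. The last is from Mcm7, a lower gene of DNA replication, and holds E2F sites. All were picked for holding a motif. Of the 10 largest rises with a matched promoter, 2 held a cyclic AMP response element and 0 a CArG box, the site of serum response factor. The promoters of Fosb, Fos, Cxcl1, Nr4a1 and Csrnp1 held none of the motifs searched. Capitals mark the motif named beside each sequence, which may lie on either strand, and each sequence reads 5′ to 3′ along its gene.
Dusp1, chr17:26508423-26508722, minus strand, with a cyclic AMP response element and an E-box (CACGTG): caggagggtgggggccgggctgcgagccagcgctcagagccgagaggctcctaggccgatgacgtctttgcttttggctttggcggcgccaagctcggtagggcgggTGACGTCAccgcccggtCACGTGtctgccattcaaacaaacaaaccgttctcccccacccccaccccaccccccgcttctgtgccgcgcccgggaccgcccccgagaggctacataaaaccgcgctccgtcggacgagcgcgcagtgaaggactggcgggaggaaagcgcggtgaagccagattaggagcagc
Ppp1r15a, chr7:45526219-45526518, minus strand, with an interferon response element and a cyclic AMP response element: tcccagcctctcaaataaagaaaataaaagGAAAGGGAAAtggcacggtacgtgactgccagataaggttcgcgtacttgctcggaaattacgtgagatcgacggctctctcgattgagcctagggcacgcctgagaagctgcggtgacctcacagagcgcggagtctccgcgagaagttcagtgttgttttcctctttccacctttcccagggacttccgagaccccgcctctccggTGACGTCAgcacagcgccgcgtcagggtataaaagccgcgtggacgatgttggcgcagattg
Clec2d, chr6:129180365-129180664, plus strand, with an interferon response element: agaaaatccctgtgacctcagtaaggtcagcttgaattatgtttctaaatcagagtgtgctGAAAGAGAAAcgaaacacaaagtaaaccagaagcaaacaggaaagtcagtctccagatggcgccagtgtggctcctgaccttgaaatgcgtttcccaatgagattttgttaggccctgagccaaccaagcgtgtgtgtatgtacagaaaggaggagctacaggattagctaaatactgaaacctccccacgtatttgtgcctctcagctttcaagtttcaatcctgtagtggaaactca
Bst2, chr8:71537423-71537722, minus strand, with a pair of overlapping interferon response elements: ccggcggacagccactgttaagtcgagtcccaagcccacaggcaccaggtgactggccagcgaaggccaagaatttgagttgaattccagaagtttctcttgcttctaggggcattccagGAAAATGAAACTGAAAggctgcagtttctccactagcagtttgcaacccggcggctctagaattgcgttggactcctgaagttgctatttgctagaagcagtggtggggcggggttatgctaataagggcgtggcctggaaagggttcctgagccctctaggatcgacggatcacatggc
Mcm7, chr5:138171834-138172133, minus strand, with E2F sites on both strands: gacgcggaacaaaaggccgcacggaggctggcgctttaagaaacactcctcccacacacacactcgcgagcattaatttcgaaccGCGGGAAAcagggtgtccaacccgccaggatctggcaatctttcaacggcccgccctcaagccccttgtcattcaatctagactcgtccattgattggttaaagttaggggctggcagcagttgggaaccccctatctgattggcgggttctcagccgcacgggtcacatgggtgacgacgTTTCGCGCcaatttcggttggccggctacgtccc

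Over all matched promoters, the interferon response element stood in 16 of 173 (9.25%) of genes higher by more than 1.2-fold, 4.65% of all higher genes and 2.38% of lower genes. It stood in 3.04% of tested and 3.49% of all 27025 promoters of this length. An E2F site (TTTCGCGC, TTTGGCGC or TTTCCCGC) stood in 4.89% of lower and 1.74% of higher genes, against 3.75% of tested and 1.91% of all promoters. The E-box CACGTG, which MYC and the clock factors can bind, stood in 13.6% of lower and 8.53% of higher genes, against 10.3% of tested and 7.24% of all promoters. The cyclic AMP response element stood in 3.04% of higher and 4.03% of lower genes, against 3.30% of tested and 1.88% of all promoters. For the AP-1 site TGANTCA the shares were 5.23% of higher and 4.34% of lower genes, near the 5.01% of tested promoters and below the 7.93% of all promoters. Beyond 1.2-fold it stood in 8.67% of 173 higher and 9.38% of 96 lower genes. The CArG box of serum response factor stood in 1.68% of higher, 1.47% of lower, 1.33% of tested and 1.57% of all promoters, and CCAAT in 38.2%, 39.9%, 39.7% and 37.9%. Motifs were searched on both strands, the AP-1 site may share bases with a neighbouring motif, and a match describes the letters of this window and not binding.

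Large rises outside these families included genes of secreted and surface proteins. Cxcl1, a chemokine for neutrophils (chromosome 5, 90891241 to 90893115), had 2.48, 3.51 and 4.78 CPM in unfed and 17.5, 9.34 and 16.2 CPM in fed libraries (log2 2.00, SE 0.230, adjusted p = 3.24e-05). Sparcl1, a relative of the matrix protein SPARC (chromosome 5, 104079111 to 104113733), had 8.95, 5.88 and 8.23 CPM in unfed and 23.2, 16.3 and 26.8 CPM in fed libraries (log2 1.53). Clec2d, a C-type lectin-like surface protein recognised by natural killer cell receptors, had 7.57, 6.08 and 7.49 CPM in unfed and 22, 15.8 and 24 CPM in fed libraries (log2 1.55). In all of these the fed libraries were above the unfed libraries, and fed replicate 2 was the lowest of the fed group. Abi3bp, an extracellular matrix protein of mesenchymal cells, rose from 46.6 to 105 CPM, log2 1.18 ± 0.112. In CPM, the largest gains were in Cxcl12, Spp1, Col6a1, Col6a2 and Egr1, followed by mt-Nd5, Psap, mt-Nd2, Col3a1 and Nedd4.

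Under the same naming rule the largest falls were smaller than the largest rises, although 4 called genes were lower and 2 higher by 8-fold or more without the rule. Has2, which makes long-chain hyaluronan at the cell surface (chromosome 15, 56665627 to 56694539), had 16.8, 17.5 and 16.9 CPM in unfed and 7.60, 8.52 and 8.76 CPM in fed libraries. The 3 libraries of each group lay close together and far from the other group (log2 −1.04, SE 0.0968, adjusted p = 5.93e-06). Slc7a5, the large neutral amino acid transporter (chromosome 8, 121881150 to 121907694), had 295, 345 and 349.9 CPM in unfed and 208, 224 and 201 CPM in fed libraries (log2 −0.65, SE 0.0645, adjusted p = 9.45e-06). Inhba, which encodes the activin A subunit, fell from 62.1 to 39 CPM, log2 −0.67 ± 0.106, and Ccn4, a WNT-induced matricellular protein, from 74.5 to 44.9 CPM, log2 −0.73 ± 0.0834. Uba6, an activating enzyme of ubiquitin, fell from 46.4 to 29.3 CPM, log2 −0.66 ± 0.0521, and Tuba4a, an α-tubulin, from 115 to 74.2 CPM, log2 −0.63 ± 0.0544. The chromatin proteins Hmga1b (31.9 to 19.97 CPM, log2 −0.68 ± 0.0952) and Hmga1 (30.6 to 21.3 CPM, log2 −0.52 ± 0.129) fell as well, with counts that may be shared between these near-identical copies. Hmga2, on another locus, fell from 28.9 to 19.6 CPM, log2 −0.56 ± 0.134. By loss of CPM the leading genes were those of the cytoskeleton and of translation, Flna, Actb, Acta2 and Pabpc1, and then Ftl1, Ahnak, Cfl1, Tubb5, Rack1 and Ccn2.

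Gene lists were then read by the number of members called in each direction, against 14.9% higher and 15.9% lower over all tested genes. These shares were not matched to the level of a list's members, although calls were more frequent among abundant genes. Between 100 and 1000 CPM, 354 of 2019 genes were higher and 563 lower (45.4% called). The part of level in the list counts was not tested. Of the 70 lists with at least 10 tested members, other than the marker lists, 41 had more higher than lower members, 26 had more lower than higher members and 3 had equal numbers. The lists overlap in part, and no test of a list was made.

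**Figure D3:**
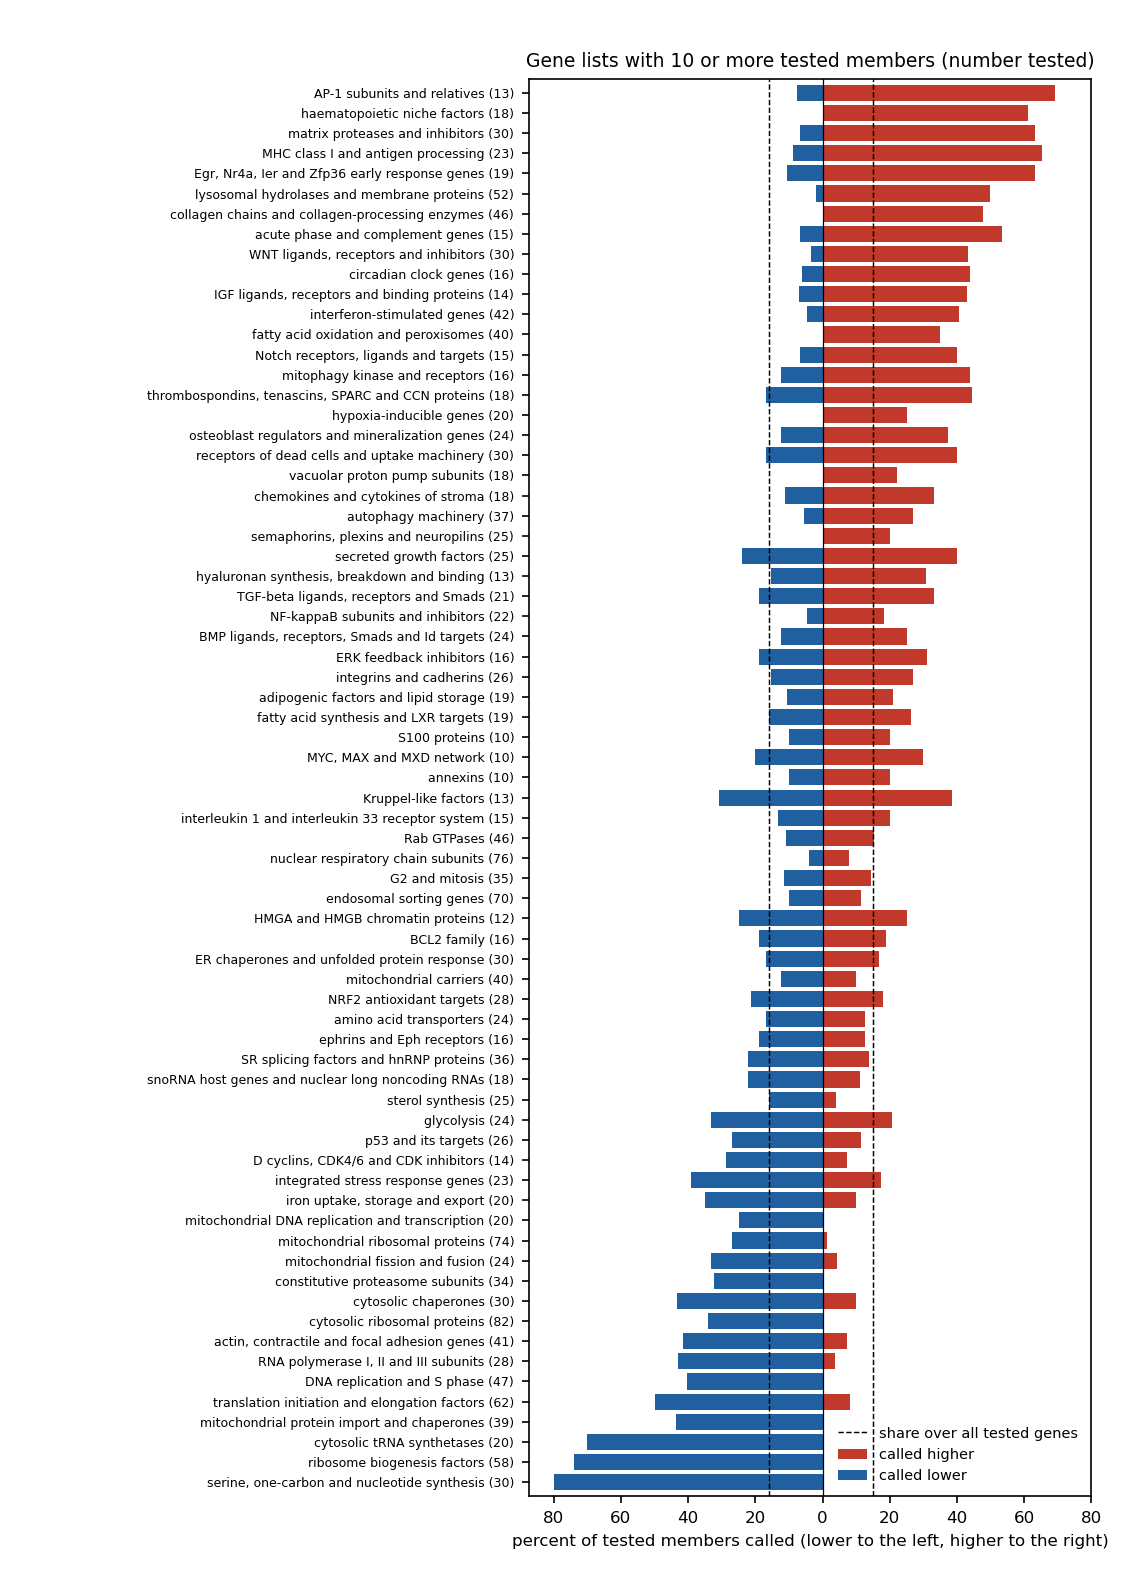
Percent of the tested members of each list called higher (red, to the right) or lower (blue, to the left) in fed 24 h cells, with the number tested in parentheses and dashed lines at the shares over all tested genes (14.9% higher, 15.9% lower). Lists at the bottom, of nucleotide synthesis, ribosome biogenesis and tRNA charging, hold only lower calls, and the lists of niche factors and collagens near the top hold only higher calls.

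The most one-sided lower lists were those of growth and biosynthesis. Serine, one-carbon and nucleotide synthesis supplies the bases of RNA and DNA, and 24 of its 30 members were lower and 0 higher, with a median of −0.25 (20 called in every alternative). Psat1, the aminotransferase of serine synthesis, had 516, 571 and 557 CPM in unfed and 372, 401 and 358 CPM in fed libraries (log2 −0.54, SE 0.0516, adjusted p = 6.37e-06). The purine enzymes Pfas (54.6 to 36.4 CPM, log2 −0.58 ± 0.0689), Atic (218 to 156 CPM, log2 −0.48 ± 0.0601) and Ppat (33 to 24.3 CPM, log2 −0.44 ± 0.0559) fell as well. Ribosome biogenesis factors, which process ribosomal RNA in the nucleolus, had 43 of 58 members lower and 0 higher, with a median of −0.27 (32 in every alternative). Heatr1, a factor for transcription and processing of ribosomal RNA, had 63.3, 76.8 and 73 CPM in unfed and 45.6, 51.3 and 45.5 CPM in fed libraries (log2 −0.58, SE 0.0650, adjusted p = 2.57e-05). Wdr12, a factor of the large subunit, fell from 52.1 to 36.4 CPM, log2 −0.52 ± 0.0496, and Rrp12, which helps export both subunits, from 60.9 to 41.3 CPM, log2 −0.56 ± 0.0898. No member of either list was called higher, and single changes were of modest size. Within the nucleolar transcription machinery, Polr1b, the second largest subunit of RNA polymerase I, had 23.8, 31.2 and 27.3 CPM in unfed and 16.7, 19.6 and 15.9 CPM in fed libraries (log2 −0.66, SE 0.0903, adjusted p = 0.000123). Of 28 subunits of RNA polymerases I, II and III, 12 were lower and 1 higher, the higher being Polr3gl (6.54 to 8.86 CPM, log2 0.44 ± 0.0933).

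Called genes of further steps of protein synthesis were mostly lower. Of 20 cytosolic tRNA synthetases, which load tRNAs with amino acids, 14 were lower and 0 higher (median −0.17), among them Iars for isoleucine (238 to 192 CPM, log2 −0.31 ± 0.0591) and Gars for glycine (377 to 307 CPM, log2 −0.30 ± 0.0452). Translation initiation and elongation factors had 31 of 62 lower and 5 higher. Eif5a, an elongation factor with the unusual amino acid hypusine, had 1319, 1337 and 1331 CPM in unfed and 1061, 1073 and 986 CPM in fed libraries (log2 −0.35). Eif4g3 went the other way, from 77.1 to 98.4 CPM, log2 0.35 ± 0.0566, and so did Eif2ak2, the double-stranded RNA kinase PKR (62.9 to 72 CPM, log2 0.19 ± 0.0428). Of 82 cytosolic ribosomal protein genes, 28 were lower and 0 higher, 10 of them in every alternative. Rps14 fell from 635 to 486 CPM, log2 −0.39 ± 0.0753, but ribosomal protein genes have many pseudogene copies and their counts are uncertain. Amino acid transporters were near the shares over all tested genes, with 3 of 24 higher (12.5%) and 4 lower (16.7%). Among them, Slc7a5 and Slc7a1 (139 to 99.9 CPM, log2 −0.48 ± 0.0739) fell and Slc7a2 (52.8 to 65.8 CPM, log2 0.32 ± 0.0624) rose. Of the genes of the integrated stress response, which ATF4 drives when amino acids run short, 9 of 23 were lower and 4 higher. Asns, asparagine synthetase, fell from 209 to 154 CPM, log2 −0.44 ± 0.0447, while Ppp1r15a and Nupr1 (34.9 to 44.2 CPM, log2 0.34 ± 0.0780) rose. In protein folding and breakdown, 13 of 30 cytosolic chaperones were lower and 3 higher, and 11 of 34 proteasome subunits were lower, 0 higher and 23 not called. Of those proteasome subunits, 1 was called in every alternative, Psmd5 (83.2 to 70.6 CPM, log2 −0.24 ± 0.0435).

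**Figure D4:**
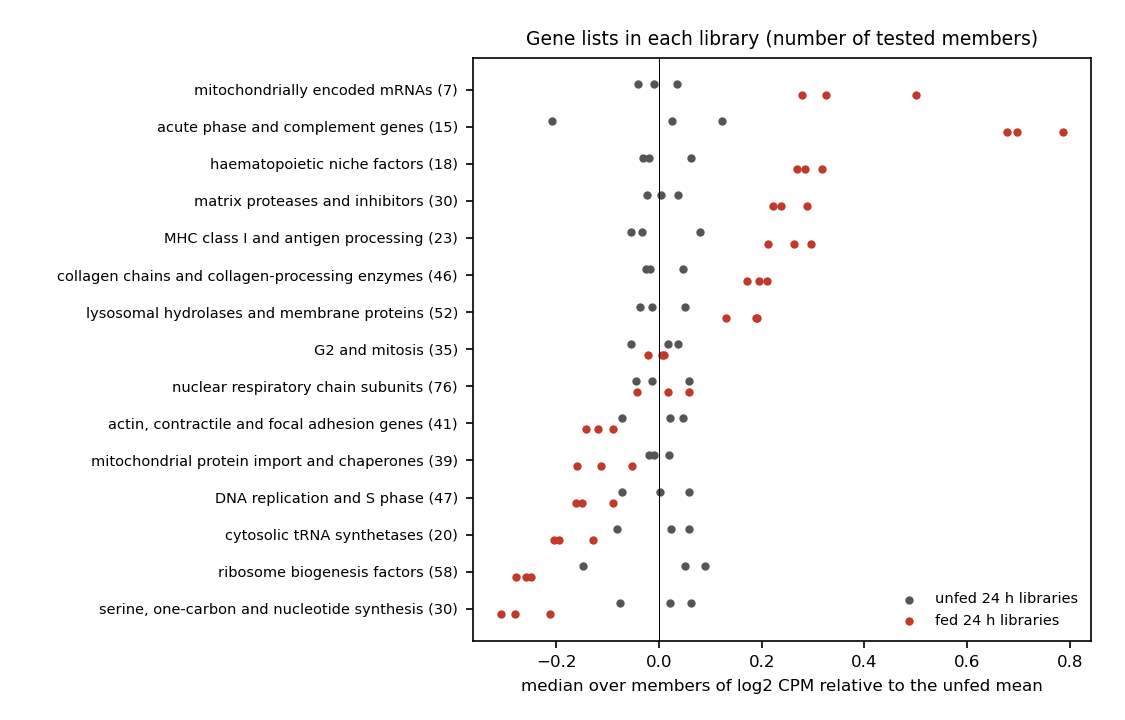
Median over the members of selected lists of log2 CPM relative to the mean of the unfed libraries, for each of the 3 unfed (grey) and 3 fed (red) libraries, with the number of tested members in parentheses. Fed and unfed libraries do not overlap for 13 of the 15 lists, they overlap for nuclear respiratory chain subunits and for G2 and mitosis, and unfed replicate 1 is the lowest unfed library for most of the lower lists.

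The spread between unfed libraries matters for these lower lists. In ribosome biogenesis the median was −0.15 in unfed replicate 1 and 0.09 and 0.05 in the other unfed libraries, against −0.28, −0.25 and −0.26 in fed libraries. Unfed replicate 1 thus lay between the other unfed libraries and the fed libraries for this list. For collagens the fed medians were 0.19, 0.21 and 0.17 and the unfed medians −0.03, 0.05 and −0.02.

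Cell cycle genes were read by phase. Of 47 genes of DNA replication and S phase, 19 were lower and 0 higher (median −0.13), while of 35 genes of G2 and mitosis 4 were lower and 5 higher (median −0.02). Cdca7, a chromatin factor regulated by E2F and MYC, had 29.5, 31.6 and 29.8 CPM in unfed and 17, 19.3 and 20.7 CPM in fed libraries (log2 −0.67, SE 0.0658, adjusted p = 7.63e-06). Mcm7, a subunit of the replicative helicase, fell from 224 to 178 CPM, log2 −0.34 ± 0.0509, and Ccne2, the cyclin of S phase entry, from 26.7 to 19.7 CPM, log2 −0.43 ± 0.0541. Among mitotic genes Cenpe, a kinetochore motor, rose from 75.8 to 106 CPM, log2 0.48 ± 0.0864, and Ccna2, cyclin A2, fell from 218 to 192 CPM, log2 −0.18 ± 0.0435. Mki67, the proliferation marker, was not called, at 369, 448 and 463 CPM in unfed and 469, 429.7 and 512 CPM in fed libraries, where the groups overlapped. Pcna, the sliding clamp, was not called either (232 to 219.6 CPM, log2 −0.08 ± 0.0381). The G1 regulators Ccnd1, cyclin D1 (469 to 377 CPM, log2 −0.32 ± 0.0519), and Cdk6 (35.7 to 24.7 CPM, log2 −0.53 ± 0.0656) fell. Of 26 p53-linked genes 7 were lower and 3 higher, with Trp53 itself at 201, 216 and 218 CPM in unfed and 155, 161 and 157 CPM in fed libraries (log2 −0.42, SE 0.0420, adjusted p = 8.86e-06). Cdkn1a, the p53 target p21, did not pass the test (122 to 129 CPM, log2 0.08 ± 0.0482), and Myc did not either (34.8 to 40.1 CPM, log2 0.20 ± 0.121).

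Mitochondrial genes divided by where they are encoded and by function. Of the 13 mRNAs of the mitochondrial genome, only 7 passed the filter on low counts, and why the others failed it was not tested. Of these 7, 6 were higher and 0 lower, 3 of them in every alternative that kept these genes. mt-Nd5, a subunit of complex I, had 1069, 1071 and 1109.7 CPM in unfed and 1478, 1691 and 1497 CPM in fed libraries (log2 0.52, SE 0.103, adjusted p = 0.00160). Fed replicate 2, which also had the largest mitochondrial share of counts, was the highest for mt-Nd5, mt-Nd2 and mt-Nd4, and no group overlapped. The nuclear subunits of the respiratory chain showed fewer calls than the background, with 6 of 76 higher and 3 lower and a median of 0.02. Machinery that maintains and supplies mitochondria held mostly lower calls. Protein import and chaperones had 17 of 39 genes lower and 0 higher (12 in every alternative). Mitochondrial ribosomal proteins had 20 of 74 lower and 1 higher (7 and 0 in every alternative). Mitochondrial DNA replication and transcription had 5 of 20 genes lower and 0 higher (5 in every alternative). Hspd1, the mitochondrial chaperonin HSP60, had 501, 602 and 570.2 CPM in unfed and 438, 476 and 464 CPM in fed libraries (log2 −0.28). Tfam, which packages and transcribes mitochondrial DNA, had 55.9, 55.1 and 56.8 CPM in unfed and 45.3, 48.1 and 46.8 CPM in fed libraries (log2 −0.26, SE 0.0451, adjusted p = 0.000678). Pprc1, a relative of the coactivator PGC-1α, fell from 89.1 to 60.7 CPM, log2 −0.55 ± 0.0800.

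Mitochondrial shape and removal genes changed by small amounts. Of 24 fission and fusion genes, 8 were lower and 1 higher, the lower ones including Mief1, an adaptor of the fission GTPase (42.3 to 33.1 CPM, log2 −0.35 ± 0.0438), and Phb2, a prohibitin of the inner membrane (272 to 229 CPM, log2 −0.25 ± 0.0463). Mfn2, an outer membrane fusion GTPase, was called lower at log2 −0.11, and Opa1, its inner membrane counterpart, higher at log2 0.14, both under 1.2-fold. The call of Mfn2 was lost in 11 of the alternatives and that of Opa1 without fed replicate 1 or fed replicate 3. Of 16 mitophagy genes, 7 were higher and 2 lower. Pink1, the kinase that marks damaged mitochondria, had 25.5, 23.9 and 23.3 CPM in unfed and 28.3, 29.9 and 28.1 CPM in fed libraries (log2 0.25), and the receptor Optn rose from 6.16 to 8.37 CPM, log2 0.44 ± 0.0860. Sqstm1, the adaptor p62, did not pass the test (403 to 399 CPM, log2 −0.01 ± 0.0389).

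The route of the engulfed cell was next examined. Of 30 tested receptors of dead cells and genes of uptake, 12 were higher and 5 lower. Gas6, the bridging ligand that ties phosphatidylserine on dying cells to the TAM receptors (chromosome 8, 13465374 to 13494490), had 149.6, 112 and 123 CPM in unfed and 212, 189.7 and 204 CPM in fed libraries. The fed libraries all exceeded the unfed libraries (log2 0.65, SE 0.0775, adjusted p = 3.89e-05). Its receptor Axl went the other way, at 893, 1005 and 937 CPM in unfed and 823, 872 and 787 CPM in fed libraries (log2 −0.19, adjusted p = 0.0143), a call lost without fed replicate 1, fed replicate 3 or unfed replicate 2. Mertk stayed under 1 CPM in all 6 libraries, and Lrp1, an abundant uptake receptor, was not called (4432 to 3970.1 CPM, log2 −0.16 ± 0.0650). Cdc42, the GTPase that shapes actin at the phagocytic cup, fell from 469.9 to 396 CPM, log2 −0.25 ± 0.0465, and Gulp1, an engulfment adaptor, rose from 47.1 to 58 CPM, log2 0.30 ± 0.0743. The 46 Rab GTPases (7 higher, 5 lower) and 70 endosomal sorting genes (8 higher, 7 lower) were near or below the background.

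Lysosomal genes rose far more often than they fell. Of 52 tested lysosomal hydrolases and membrane proteins, 26 were higher and 1 lower, with a median of 0.17 (20 higher in every alternative), and 1 of them exceeded 1.2-fold by the stricter test. Psap, the precursor of the saposins that help lysosomal enzymes degrade sphingolipids (chromosome 10, 60277627 to 60302597), had 1423, 1337 and 1366 CPM in unfed and 1803, 1784 and 1719.8 CPM in fed libraries (log2 0.36, SE 0.0454, adjusted p = 5.91e-05). Ctsk, the collagen-degrading cathepsin K, had 19.6, 18.3 and 18.6 CPM in unfed and 26.9, 26.2 and 27.8 CPM in fed libraries (log2 0.52, SE 0.0520, adjusted p = 9.76e-06). Within each group the 3 libraries of Psap and Ctsk were close, and the groups did not overlap, which the choice of named genes required. The vacuolar proton pump that acidifies lysosomes had 4 of 18 subunits higher and 0 lower (1 in every alternative). The autophagy machinery had 10 of 37 higher and 2 lower (8 and 1 in every alternative). Calcoco1, an autophagy receptor, rose from 39.3 to 55.9 CPM, log2 0.51 ± 0.0483, and Map1lc3b, which coats autophagosomes and some phagosomes, from 93.3 to 109.8 CPM, log2 0.24 ± 0.0509.

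Genes of lipid handling moved in both directions. Of 40 genes of fatty acid oxidation and peroxisomes, 14 were higher and 0 lower (7 in every alternative). They included Acadm, the medium-chain acyl-CoA dehydrogenase (91.6 to 122 CPM, log2 0.42 ± 0.0486). The medians of this list relative to the unfed mean overlapped between groups, at 0.04 in fed replicate 3 and 0.06 in unfed replicate 1. Lpl, lipoprotein lipase (chromosome 8, 68880491 to 68907448), had 362, 309 and 349 CPM in unfed and 567, 526 and 564 CPM in fed libraries (log2 0.70, SE 0.0558, adjusted p = 2.20e-06). Of 19 genes of fatty acid synthesis and LXR targets, 5 were higher and 3 lower, with a median of 0.08 (2 and 2 in every alternative). Fasn, fatty acid synthase, fell from 859 to 667 CPM, log2 −0.36 ± 0.0625, and Acaca, which supplies malonyl-CoA to it, from 153 to 127 CPM, log2 −0.27 ± 0.0396. On the same list Abca1, the cholesterol exporter induced by sterol-loaded LXR, had 2.65, 1.75 and 2.42 CPM in unfed and 4.61, 4.25 and 4.15 CPM in fed libraries (log2 0.93, SE 0.144, adjusted p = 0.000271). Sterol synthesis had 1 of 25 members higher and 4 lower, with Stard4 (138 to 114 CPM, log2 −0.28 ± 0.0409) among the lower. Pparg, the adipogenic factor, had near-equal levels that did not pass the test (42.8 to 43.4 CPM, log2 0.02 ± 0.0495).

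Called genes of innate immunity were mostly higher. Of 15 tested acute phase and complement genes, 8 were higher and 1 lower, with the largest median of the lists described, 0.72. C1s1, a protease of the classical pathway, had 32.7, 23.9 and 28.5 CPM in unfed and 55.9, 49.1 and 58.1 CPM in fed libraries (log2 0.94, SE 0.0895, adjusted p = 6.37e-06). Hp, haptoglobin, rose from 45 to 85.8 CPM, log2 0.93 ± 0.120, and C3, the central complement protein, from 3.43 to 6.23 CPM, log2 0.86 ± 0.168. Unfed replicate 2 was the lowest library for C1s1, Hp and C3. The groups did not overlap for any of them, which the choice of named genes required.

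Antigen presentation by MHC class I had 15 of 23 genes higher and 2 lower, with a median of 0.25 (14 higher in every alternative). Nlrc5, the transactivator of class I genes, had 7.74, 6.35 and 7.36 CPM in unfed and 13.7, 10.7 and 13.6 CPM in fed libraries (log2 0.83, SE 0.105, adjusted p = 6.65e-05). The heavy chains H2-K1 (159 to 188 CPM, log2 0.25 ± 0.0513) and H2-D1 (61 to 76 CPM, log2 0.32 ± 0.0431) and the light chain B2m (387 to 462 CPM, log2 0.25 ± 0.0594) rose by similar small amounts, though class I genes are close copies of each other whose reads could be exchanged. Psmb9, a subunit of the immunoproteasome, rose from 5.68 to 7.85 CPM, log2 0.47 ± 0.111. Among 42 interferon-stimulated genes, 17 were called higher and 2 lower (median 0.27), of which 7 were higher in every alternative. For this list unfed replicate 1 lay near the fed libraries. Its median relative to the unfed mean was 0.19, against −0.08 and −0.06 in the other unfed libraries and 0.28, 0.25 and 0.24 in fed libraries. Bst2, tetherin, which holds budding viruses at the cell surface and whose promoter is printed above, had 18.2, 13.6 and 13.6 CPM in unfed and 27.2, 22.7 and 26.5 CPM in fed libraries (log2 0.75, SE 0.0996, adjusted p = 8.96e-05). Irgm1, an interferon-inducible GTPase, was a lower member, from 57.9 to 41.6 CPM, log2 −0.48 ± 0.0574.

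Chemokines and cytokines were mixed. Of 18 tested, 6 were higher and 2 lower. Csf1, which sustains macrophages and osteoclast precursors, rose from 883 to 1049 CPM, log2 0.25 ± 0.0596, and Mif fell from 305 to 254 CPM, log2 −0.26 ± 0.0476. Ccl2, the monocyte chemokine, was not called, at 43.5, 46.3 and 51.4 CPM in unfed and 48.6, 39.7 and 48.5 CPM in fed libraries, and these ranges overlapped. Most subunits and inhibitors of NF-κB were not called (4 of 22 higher, 1 lower), and Nfkbiz, an inducible co-regulator, was the largest rise among those named at 4.46, 5.01 and 7.96 CPM in unfed and 15, 9.87 and 13.6 CPM in fed libraries (log2 1.14). In the interleukin 1 and 33 system, the receptor antagonist Il1rn rose from 574 to 805 CPM, log2 0.49 ± 0.0966. Il1rl1, the receptor of interleukin 33, which shares the name ST2 with the cell line by coincidence, fell from 34.5 to 24.8 CPM, log2 −0.48 ± 0.0744.

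Called matrix genes were mostly higher. Of 46 tested collagen chains and processing enzymes, 22 were higher and 0 lower, with a median of 0.19, and 10 were higher by more than 1.2-fold. Col6a2, a chain of the beaded microfibrils around cells (chromosome 10, 76595762 to 76623630), had 2007, 1795 and 1806 CPM in unfed and 2752, 2744 and 2671 CPM in fed libraries (log2 0.54, SE 0.0489, adjusted p = 4.74e-06). Its partner Col6a1 had 3094, 2725 and 2771 CPM in unfed and 3973, 3954 and 3935 CPM in fed libraries (log2 0.47). For both chains the 3 fed libraries were nearly equal and all above the unfed libraries. Col10a1, the collagen of hypertrophic cartilage, rose from 27.1 to 45 CPM, log2 0.73 ± 0.0486, and Col3a1, a fibrillar collagen, from 970.3 to 1275 CPM, log2 0.39 ± 0.0477. Col1a1, the most abundant of the named collagens, did not pass the test (log2 −0.05, adjusted p = 0.461). Of 30 matrix proteases and inhibitors, 19 were higher and 2 lower. Mmp13, a collagenase of bone and cartilage and a known AP-1 target, had 9.96, 5.24 and 6.40 CPM in unfed and 16.8, 15.6 and 18 CPM in fed libraries (log2 1.22, SE 0.188, adjusted p = 0.000264), with unfed replicate 1 nearest to the fed group. Bmp1, which trims procollagen, rose from 273 to 358 CPM, log2 0.39 ± 0.0465, and Itih2, a carrier of hyaluronan, from 114 to 172 CPM, log2 0.60 ± 0.0446, while Has2 fell as given above.

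Called genes of the cytoskeleton were mostly lower. Of 41 actin, contractile and focal adhesion genes, 17 were lower and 3 higher (15 lower in every alternative). Actb, β-actin (chromosome 5, 142903115 to 142906754), had 4464, 4665 and 4859.7 CPM in unfed and 3519.98, 3624 and 3649 CPM in fed libraries (log2 −0.37, SE 0.0464, adjusted p = 5.56e-05). Flna, an actin crosslinker, had 4568, 5155 and 4894 CPM in unfed and 3774, 4035 and 3563 CPM in fed libraries, and Acta2, smooth muscle actin, fell from 4889 to 4002 CPM, log2 −0.29 ± 0.0508. No fed library of these genes reached an unfed library, which the choice of named genes required. Ccn2 and Ankrd1, known targets of YAP, fell from 1069.6 to 761 CPM, log2 −0.49 ± 0.0723, and from 101 to 71.1 CPM, log2 −0.51 ± 0.0971. Ccn1, another known YAP target and also an early response gene, went the other way, from 479 to 660.2 CPM, log2 0.46 ± 0.0613. Of 21 genes of TGF-β signalling 7 were higher and 4 lower, with Tgfbr3 (92.3 to 128 CPM, log2 0.47 ± 0.0603), the inhibitor Smad7 (36.3 to 50.1 CPM, log2 0.47 ± 0.0757) and Ltbp2 (304 to 400.2 CPM, log2 0.40 ± 0.0450) among the higher, and Inhba among the lower.

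Factors with which stroma supports blood formation were mostly higher. Of 18 tested niche factors, 11 were higher and 0 lower (9 in every alternative), with a median of 0.29. Cxcl12, the chemokine ligand of CXCR4 (chromosome 6, 117168535 to 117181367), had 6594, 5096 and 5447 CPM in unfed and 8164, 7646 and 8112 CPM in fed libraries (log2 0.48, SE 0.0728, adjusted p = 0.000226). Foxc1 (105 to 133 CPM, log2 0.34 ± 0.0444) and Ebf1 (107 to 137 CPM, log2 0.35 ± 0.0576), transcription factors of niche stromal cells, rose by about equal amounts. Vcam1, the adhesion molecule of the niche, was not called, at 57.2 ± 2.67 CPM in unfed and 57.1 ± 1.10 CPM in fed libraries (SD, n = 3 each). Hgf, hepatocyte growth factor, had 86.1, 62.9 and 69.99 CPM in unfed and 123, 112 and 125 CPM in fed libraries (log2 0.72, SE 0.0825, adjusted p = 3.10e-05), the largest rise among the named growth factors of at least 5 CPM. Of 25 secreted growth factors 10 were higher and 6 lower, with Angpt4 (13.6 to 20.2 CPM, log2 0.57 ± 0.0818) and Pgf (28.2 to 38 CPM, log2 0.43 ± 0.0709) among the higher.

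The osteoblast list moved upward in part. Of 24 tested osteoblast regulators and mineralization genes, 9 were higher and 3 lower (7 and 1 in every alternative). Spp1, osteopontin (chromosome 5, 104435118 to 104441050), had 2435, 2169.6 and 2231 CPM in unfed and 3575, 3332 and 3668 CPM in fed libraries (log2 0.63, SE 0.0557, adjusted p = 4.39e-06). Runx2, the master factor of osteoblasts, had 68.2, 69.2 and 71.3 CPM in unfed and 83.5, 77 and 86.4 CPM in fed libraries (log2 0.24, SE 0.0559, adjusted p = 0.00443). Alpl, the phosphatase that frees phosphate for mineral, had 12.3, 10.2 and 10.7 CPM in unfed and 13.3, 14.8 and 13.9 CPM in fed libraries (log2 0.34). Enpp1, which makes the mineral inhibitor pyrophosphate, rose as well, from 273 to 339 CPM, log2 0.31 ± 0.0582, and Tnfrsf11b, the decoy receptor osteoprotegerin, fell from 50.1 to 37.9 CPM, log2 −0.40 ± 0.0667. The higher members thus include both a gene that promotes mineral deposition and one that restrains it.

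In signalling systems that guide stromal fate, the higher genes included inhibitors and binding proteins, and also a ligand, a receptor and pathway targets. Of 30 tested WNT ligands, receptors and inhibitors, 13 were higher and 1 lower (median 0.20). The leading members were secreted WNT antagonists: Sfrp4 had 8.82, 6.47 and 7.71 CPM in unfed and 19.2, 16.4 and 16.7 CPM in fed libraries (log2 1.19, SE 0.114, adjusted p = 6.37e-06). Wif1 rose from 3.53 to 7.89 CPM, log2 1.16 ± 0.132, and Sfrp1 from 4.51 to 9.0 CPM, log2 1.00 ± 0.129. Wnt4, a ligand, rose from 3.29 to 5.75 CPM, log2 0.80 ± 0.118, and Fzd2, a receptor, was the lower member, from 87.5 to 72.2 CPM, log2 −0.28 ± 0.0590. Of 24 genes of BMP signalling 6 were higher and 3 lower, the BMP antagonist Grem1 (131 to 183 CPM, log2 0.49 ± 0.0541) and the target Id3 (149 to 199 CPM, log2 0.41 ± 0.0474) being higher. Of 14 IGF genes 6 were higher and 1 lower, with Igfbp5, a binding protein, at 3.84, 1.66 and 1.78 CPM in unfed and 6.34, 6.98 and 5.95 CPM in fed libraries (log2 1.41). Stc1, an inhibitor of the IGF-freeing protease PAPP-A, rose from 1.85 to 5.52 CPM, log2 1.58 ± 0.207, and Pappa itself fell from 27.6 to 20.7 CPM, log2 −0.42 ± 0.0731. Notch genes had 6 of 15 higher and 1 lower, including Notch3 (11.1 to 17.8 CPM, log2 0.69 ± 0.0760) and the target Hes1 (9.46 to 13.6 CPM, log2 0.53 ± 0.0848).

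Several smaller lists completed the picture. Of 16 circadian clock genes 7 were higher and 1 lower: Per3 (6.97 to 10.7 CPM, log2 0.62 ± 0.108) and the repressor Nr1d1 (29.9 to 42.9 CPM, log2 0.52 ± 0.0813) rose, and Clock fell (77.3 to 65.3 CPM, log2 −0.24 ± 0.0450). Iron genes had 7 of 20 lower and 2 higher, and the lower ones covered both uptake and storage, with Tfrc, the transferrin receptor, at 77.3, 111 and 115 CPM in unfed and 65.2, 69 and 65.9 CPM in fed libraries (log2 −0.60) and Ftl1, the ferritin light chain, from 1889 to 1503 CPM, log2 −0.33 ± 0.0590. Glycolysis was divided, 8 of 24 lower and 5 higher, with Hk2 (30.7 to 22.6 CPM, log2 −0.44 ± 0.0869) and the lactate carrier Slc16a1 (50.7 to 35.8 CPM, log2 −0.50 ± 0.0681) lower and Ldhb (27.2 to 34.8 CPM, log2 0.36 ± 0.0611) higher. Among 20 hypoxia-inducible genes, 5 were called higher and 0 lower, led by Epas1, which encodes HIF-2α, at 43.4, 35.8 and 41.5 CPM in unfed and 72.4, 66.7 and 76.5 CPM in fed libraries (log2 0.84, SE 0.0712, adjusted p = 3.40e-06). NRF2 antioxidant targets were mostly not called, with 5 of 28 higher (17.9%) and 6 lower (21.4%), against 14.9% and 15.9% over all tested genes. Osgin1 (8.03 to 16.1 CPM, log2 1.00 ± 0.110) and Gsta4 (12.2 to 18.1 CPM, log2 0.57 ± 0.0609) were higher and Srxn1 (159.6 to 139 CPM, log2 −0.20 ± 0.0434) lower. Hmox1, haem oxygenase, did not pass the test (116 to 127 CPM, log2 0.13 ± 0.0572). Splicing factors had 8 of 36 lower and 5 higher: Srsf7 (112 to 86.9 CPM, log2 −0.37 ± 0.0422) and Srsf1 (289 to 239 CPM, log2 −0.28 ± 0.0437) fell, and Srsf5 rose (89.2 to 143 CPM, log2 0.68 ± 0.0744). BCL2 family genes were near the shares over all tested genes, with 3 of 16 higher and 3 lower (18.8% each). The survival factor Mcl1 (112 to 125 CPM, log2 0.16 ± 0.0422) was among the higher and the death effector Bak1 (184 to 159.5 CPM, log2 −0.20 ± 0.0477) among the lower. Chaperones of the endoplasmic reticulum were also near those shares, with 5 of 30 higher and 5 lower (16.7% each), and Hsp90b1 (1539 to 1824 CPM, log2 0.25 ± 0.0458) was among the higher.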

How the data were processed

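RNA sequencing of ST2 cells gave 3 libraries per group, and the deposited table held the authors' raw read counts per mouse gene symbol, without normalization or pooling, per the file headers and the values. The submitters' processing notes list the builds GRCm38.p6 and GRCh38.p13 and, as tools, featureCounts, Subread 1.6.4, STAR 2.7.0f and MultiQC 1.7. The sources used here do not give how the 2 builds were used, the annotation release, the strand setting or the handling of reads with several matches. Moreover, the labels' protocols differ on the library: the sample protocol names 50 ng of RNA and a stranded kit, the series text 1 ng of RNA, amplified cDNA and 150 pg of cDNA in a transposase library, so whether reads kept their strand is unresolved. Counts of overlapping, antisense and near-identical genes are therefore uncertain. In 26 of the 55453 lines the symbol had become a date. Reads copied by PCR remain in the counts.

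The test was edgeR's quasi-likelihood F-test (edgeR 4.0.16, R 4.3.3) on the counts, after TMM scaling and the filterByExpr filter. All 9 libraries were fitted together by group alone, with 6 residual degrees of freedom and a common biological coefficient of variation of 0.0536. P-values were adjusted over all 13568 genes by the Benjamini-Hochberg method and called under 0.05; glmTreat tested against a change of 1.2-fold. CPM were scaled by TMM factors, except for summed marker levels, which are relative to total counts. Replicates of a group differed by 5.53 to 16.5 times the counting noise (chi-square per degree of freedom), so none were copies of each other. The procedure was also run on counts simulated from the kind of model that it fits, which cannot test whether that model holds for these data.

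Named genes were the 15 largest rises and falls and the 10 largest gains and losses in CPM, called under every alternative listed here, with groups that did not overlap and at least 10 CPM in the higher group. Up to 4 members per direction of each of 77 lists were named likewise, at 5 CPM, with a fixed set of genes; not all are described, and some are not reported here. Members and lists were chosen with earlier results of these data known. The alternatives were DESeq2 1.42.0 size factors and its Wald test, limma-voom (limma 3.58.1), other filters (none, or at least 1 CPM in 3 libraries), the 6 libraries alone, the replicate number as a block, mitochondrial and ribosomal RNA linked genes left out, and each library left out in turn.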

Additional observations from a re-analysis of the deposited data

How the results depend on the processing

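Of 4176 called genes, between 68.2% (without fed replicate 1) and 99.3% stayed called across the alternatives, and 1 changed sign, without unfed replicate 2. The counts of higher and lower genes stayed within 1.5 times their values of 2017 and 2159, except that 1426 genes were lower without fed replicate 1. Leaving out 1 library gave 1488 to 2184 higher and 1426 to 2241 lower genes. Counts above 1.2-fold depended more on the processing. The 247 higher genes became 135 with the Wald test of DESeq2 and 385 without the filter, and ran from 132 to 416 when 1 library was left out. The 132 lower genes became 61 and 239 with these settings, and ran from 48 to 272. The labels give fed and unfed libraries the same replicate numbers. The deviations of same-numbered libraries correlated at 0.0508, 0.0578 and 0.0148, and those of other pairs at −0.0971 to 0.0457. All were small and the numbers were not taken as pairs, though this does not settle whether they are. With the number as a replicate block, 1901 genes were higher and 2010 lower, and fed replicate 3 correlated best with unfed replicate 2. In a fit of the 6 libraries with the block, added after seeing the data, 210 genes were lower by more than 1.2-fold, against 107 without the block. Calls in either direction were 4573 with the block and 3915 without it. Most named genes were chosen for calls kept in every one of the 17 alternatives, so few losses or reversals could occur among them. Across these alternatives, without the added block fit, 24 pairs of named gene and setting lost a call (of Mfn2, Itga2b, Axl, Lyz2 and Opa1). A further 9 pairs gained one, and none reversed. The cause of these shifts was not tested. Of genes under 1 CPM, which have the fewest counts, 7.25% were called.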

Other observations

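Adhesion and guidance genes, not described above, held calls in both directions. Of 25 tested semaphorins, plexins and neuropilins 5 were higher and 0 lower, with Sema4c rising from 14.0 to 19.4 CPM (log2 0.46 ± 0.0708, SE) and Plxnd1, a semaphorin receptor, rising at log2 0.23. Of 26 integrins and cadherins 7 were higher and 4 lower. Cdh11, the cadherin of mesenchymal and osteoblast cells, had 224, 179 and 203 CPM in unfed and 285, 259 and 281 CPM in fed libraries (log2 0.45 ± 0.0657), and Itga5, the fibronectin receptor chain, fell (log2 −0.31 ± 0.0668). Of 16 ephrins and Eph receptors 3 were lower and 2 higher, with Efnb2 at 30.2, 38 and 40.04 CPM in unfed and 22, 24.3 and 23.8 CPM in fed libraries (log2 −0.63 ± 0.0837). The groups did not overlap for Cdh11 or Efnb2, which the choice of named genes required.

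Among noncoding RNAs, host genes of small nucleolar RNAs went in both directions. Zfas1 had 11.9, 12.9 and 13.2 CPM in unfed and 20.1, 17.03 and 22.2 CPM in fed libraries (log2 0.64 ± 0.114), whereas Snhg4 fell (log2 −0.53 ± 0.120). By chromosome, called genes were spread evenly over the autosomes and X, with 13% to 18.6% of tested genes higher and 12.4% to 18.4% lower on each. The mitochondrial genome was the exception, with 8 of its 13 tested genes higher and 0 lower. These 13 include genes other than the 7 tested mRNAs.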
